A study of Mus musculus with 61 samples.

Results

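The libraries described here follow the loss of Spt5 in mouse primary B cells, seen from the IgG1 site of the immunoglobulin heavy chain locus (Igh). They were chosen by their labels, as the libraries of the Spt5 series pulled down with the IgG1 pool of capture probes, and they are 9 of the 61 libraries of the series. The control group held 4 libraries, replicates 1 and 3 of clone 1 and replicates 1 and 2 of clone 2. The depleted group held 5 libraries, replicates 3 and 4 of clone 1 and replicates 1, 2 and 3 of clone 2. The treatment label of the depleted cells gives 62 h of activation, of which the last 32 h were with 4HT to deplete Spt5. The controls are labelled WT, with no activation time, and all cells were grown with LPS and IL4. No allele, age or Spt5 level is given for either group, and what a clone of primary B cells is, and whether replicates came from separate mice or cultures, is not stated. The p-values below therefore measure only the spread between these libraries, which may be technical.

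Class switch recombination replaces the constant region of an antibody by joining the DNA beside the Igh mu gene to the DNA beside a downstream gene such as the IgG1 gene. The enzyme AID starts it at switch regions that are being transcribed. Emu is the enhancer between the joining segments and the mu gene, and hs4 is an element of the 3′ regulatory region at the other end of the constant genes. LPS with IL4 directs mouse B cells towards IgG1 and IgE. Spt5 is a transcription elongation factor that travels with RNA polymerase II, acts in its pausing and its processive movement, and is known to be needed for class switching.

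In Tri-C, crosslinked chromatin is cut and religated, fragments that carry a chosen viewpoint are pulled down, and reads that join the viewpoint to a pair of other fragments are counted. Each library is a square matrix of 1 kb bins. A value stands for the contacts of the IgG1 viewpoint with a pair of bins, scaled by the authors so that every library sums to 300000. Values came out as whole contacts once a whole-number divisor was found for each bin, so they are weighted by bin. Below, a contact is 1 such pair and its 2 places are its ends. Levels called a percent of contacts or contact ends are shares of these weighted values, not of recovered whole contacts. In replicate 1 of the clone 1 controls, contacts in 1 bin were 52.1% of the values and 64.1% of the recovered contacts. Positions are in kb from the first bin of the matrix. The bins that the probes leave empty put hs4 at 31 kb, IgG2a at 85 kb, IgG1 at 142 kb, IgG3 at 169 kb and Emu at 229 kb. A window of 11 kb was set on each site, or 10 kb for Emu, which lies by the end of the matrix. In the mouse gene table of RefSeq (GRCm38.p6), Ighg1 lies on chromosome 12 between Ighg2b and Ighg3, with Ighm beyond Ighg3 and Igha at the other end.

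The libraries differed in depth and in build. The whole-number contacts recovered from the scaled values numbered 44683 and 48314 in the clone 1 controls and 30578 and 34426 in the clone 1 depleted libraries. In clone 2 they numbered 50700 and 71870 in the controls and 57765 to 89862 in the depleted libraries, which overlapped. The clone 2 controls stood apart in contacts for each filled pair of different bins, at 10.4 and 10.5 against 4.95 to 8.33 in the other 7 libraries. Their filled pairs numbered 1494 and 2287, and replicate 3 of the depleted clone 1 libraries, at 1640, lay between them. Over 180 block pairs, the correlation of log2 values between libraries of the same condition and clone ran from 0.867 to 0.945, and between control and depleted libraries of the same clone from 0.861 to 0.905.

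Spt5 depletion was accompanied by a lower share of contacts at the Emu end of the locus. The share was higher from 70 to 130 kb, a stretch that holds the IgG2a site and ends short of IgG1. Of the 24 blocks of 10 kb, 6 rose and 5 fell at an adjusted p under 0.05 (limma on log2 of value plus 50, with clone as a term), which is 45.8% of the blocks tested (25% up and 20.8% down). The 6 that rose were neighbours, from 70 to 130 kb. The 5 that fell were the 3 blocks from 210 kb to the end, where Emu lies, and the pair from 10 to 30 kb, on the far side of hs4 from IgG1. The control and depleted libraries did not overlap in 8 of the 24 blocks (33.3%), 4 of them higher and 4 lower after depletion. Scaled by the median ratio of block pairs between libraries in place of the fixed sum, no block rose and the same number, 5, fell. The rise from 70 to 130 kb is thus a rise in share whose call depended on the scaling. That scaling moved the median log2 difference over block pairs from 0.39 to 0.05. Its log2 factors, by which values were divided, were 0.02 and 0.16 in the clone 1 controls against -0.26 and 0.06 after depletion. In clone 2 they were -0.21 and -0.67 in the controls against 0.45, 0.48 and 0.37. It thus lowered the depleted libraries against the controls in clone 2, while in clone 1 the factors overlapped and leaned the other way. The lost calls are therefore averages over clones that this scaling shifted differently. With the fixed sum, clone 1 alone, with 2 libraries against 2, gave no call in either direction, and its fitted difference was 0.55 at 100-110 kb and -0.88 at 220-230 kb.

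**Figure D1:**
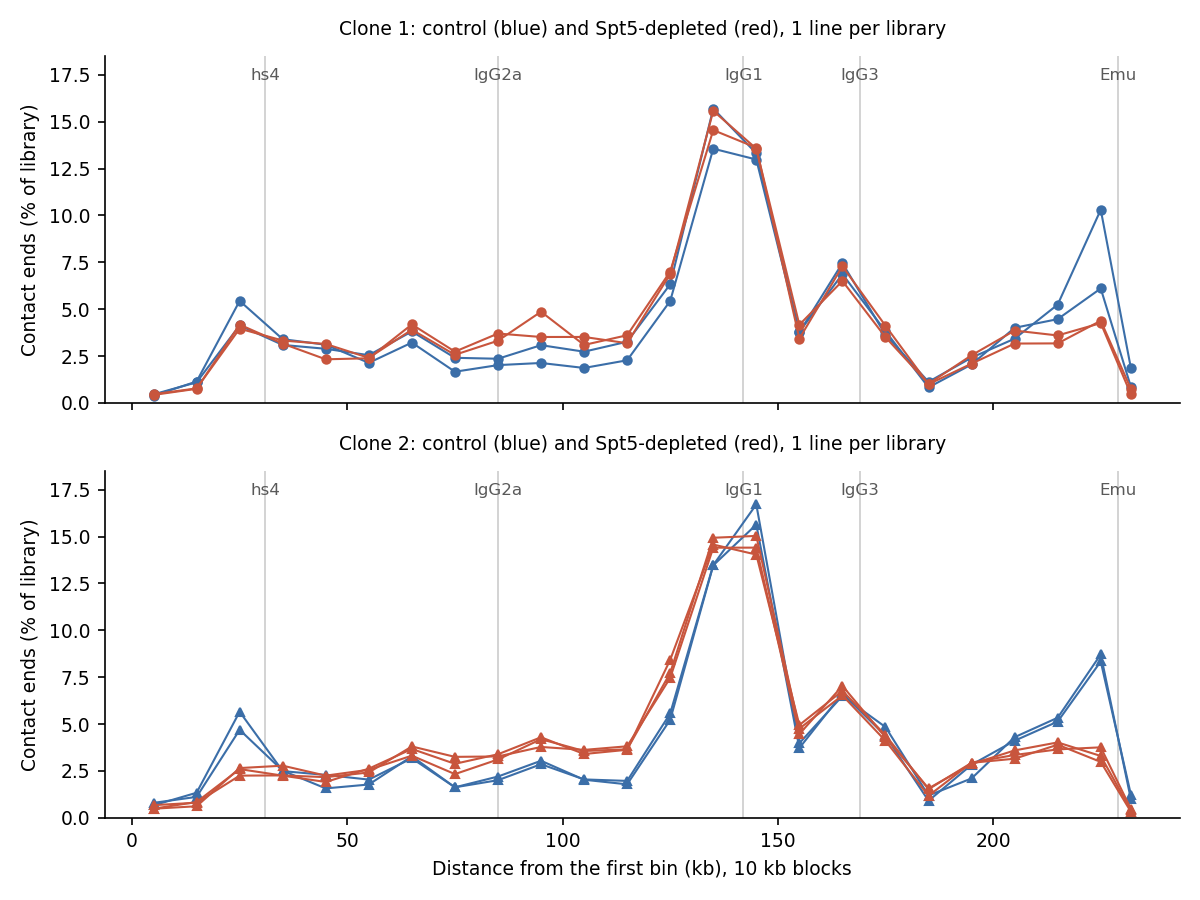
Percent of contact ends (vertical axis) in each 10 kb block (horizontal axis, kb from the first bin) in the IgG1 capture, clone 1 above and clone 2 below, with 1 line per library; grey lines mark the probe sites. From 70 to 130 kb the depleted libraries lie mostly above the controls, and at 220-230 kb all 5 depleted libraries (2.98% to 4.38%) lie below all 4 controls (6.10% to 10.3%).

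The block that holds most of the Emu end, 220-230 kb, took 10.3% and 6.10% of the contact ends in the clone 1 controls and 8.34% and 8.72% in the clone 2 controls. After depletion it took 4.38% and 4.26% in clone 1 and 3.76%, 3.30% and 2.98% in clone 2. Every depleted library lay below every control. The mean fell from 8.37% ± 1.73 (SD, n = 4) to 3.74% ± 0.601 (SD, n = 5), a log2 difference of -1.14 ± 0.16 (SE; limma, adjusted p = 0.000319). The last block, from 230 kb on, changed by -1.29 ± 0.23 on the same log2 scale (limma, adjusted p = 0.000910), and 210-220 kb by -0.48 ± 0.08 (limma, adjusted p = 0.000808).

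Of the 13 probe windows and pairs of windows tested, 6 were called (46.2%), 2 up and 4 down, and none of them was a pair of different sites. In the window on Emu itself the share of contact ends was 9.58% and 5.18% in the clone 1 controls and 6.95% and 7.65% in the clone 2 controls. It was 3.57% and 3.24% in the depleted libraries of clone 1 and 3.12%, 2.40% and 1.98% in those of clone 2. The groups did not overlap in either clone, and the log2 difference was -1.33 ± 0.14 (SE; limma, adjusted p = 1.05e-08). The fall was called in clone 1 alone (-1.05, adjusted p = 2.03e-07, limma) and in clone 2 alone (-1.57, adjusted p = 9.71e-24, limma), and the difference between the clones was not (-0.52 ± 0.28, adjusted p = 0.255, limma). Each fit of 1 clone held 2 controls and 2 or 3 depleted libraries. Its p-values draw largely on the spread that limma pools over the other pairs and windows. In the fit of blocks, 220-230 kb in clone 1 alone gave -0.88 and was not called (limma, adjusted p = 0.118). At 1 kb, the 8 neighbouring bins from 223 to 230 kb all fell. The steepest was the bin at 229 kb, which fell from 0.843% ± 0.400 (SD, n = 4) to 0.221% ± 0.074 (SD, n = 5) of the ends, with a log2 difference of -1.81 ± 0.30 (limma, adjusted p = 0.00208). The bins at 228, 227, 230 and 232 kb changed by -1.64, -1.62, -1.49 and -1.24.

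**Figure D2:**
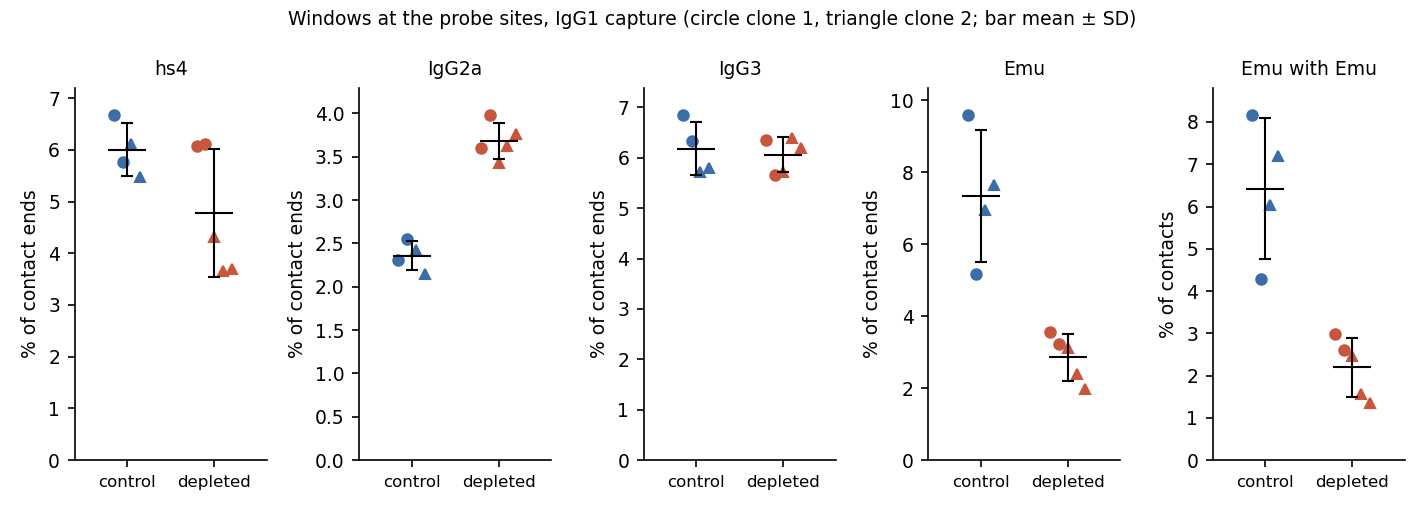
Percent of contact ends in the windows on hs4, IgG2a, IgG3 and Emu, and percent of contacts with both ends in the Emu window (vertical axes), for each control (blue) and depleted (red) library; bars give mean ± SD (n = 4 and n = 5). Emu is lower and IgG2a higher in all 5 depleted libraries than in any control, IgG3 overlaps, and hs4 is low in the 3 depleted libraries of clone 2 alone.

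The window on IgG2a, a constant gene that IL4 does not favour, moved the other way. It held 2.31% and 2.55% of the ends in the clone 1 controls and 2.43% and 2.15% in the clone 2 controls. It held 3.6003% and 3.9802% in the depleted libraries of clone 1 and 3.42%, 3.63% and 3.76% in those of clone 2. The groups did not overlap, and the log2 difference was 0.65 ± 0.10 (SE; limma, adjusted p = 1.47e-05). It was nearly the same size in clone 1 alone (0.64) and in clone 2 alone (0.65). Contacts with both ends in the window rose from 1.92% ± 0.066 (SD, n = 4) to 2.71% ± 0.326 (SD, n = 5), by 0.49 ± 0.14 on the log2 scale (limma, adjusted p = 0.0212), a call that 16 of 27 alternatives kept. With the median ratio scaling the difference for the window was 0.26, with an adjusted p of 0.628 (limma). The factors of that scaling differed between the clones, as given above, so 0.26 is an average over clones that it shifted differently.

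The rise was not confined to the IgG2a window. The whole stretch from 70 to 130 kb took 15.4% and 20.2% of the ends in the clone 1 controls and 15.9% and 16.1% in the clone 2 controls. It took 24.5% and 23.5% in the depleted libraries of clone 1 and 24.6%, 25.2% and 26.0% in those of clone 2. All 5 depleted libraries lay above all 4 controls. Among the called blocks, 100-110 kb changed by 0.68 ± 0.12, 110-120 kb by 0.68 ± 0.15 and 80-90 kb by 0.65 ± 0.08 on the log2 scale (limma, adjusted p = 0.000808, 0.00348 and 0.000255). The blocks at 70-80 kb and 90-100 kb changed by 0.61 ± 0.14 and 0.57 ± 0.13 (limma, adjusted p = 0.00352 and 0.00360). Of 225 bins of 1 kb, 26 rose (11.6%) and 24 fell (10.7%). All 26 that rose lay between 70 and 140 kb, and of the 24 that fell 16 lay from 200 kb on and 8 below 30 kb. The largest fitted rise by bin was at 78 kb, with a log2 difference of 1.78 ± 0.48 (limma, adjusted p = 0.0213). There the clone 1 libraries nearly met, at 0.182% and 0.255% in the controls against 0.257% and 0.329%, and the clone 2 controls were nearly empty, at 0.011% and 0.039% against 0.122% to 0.348%. By the ratio of means the bin at 79 kb rose more (log2 1.46 against 1.11), and its fitted difference was 1.52 ± 0.37 (limma, adjusted p = 0.0141). The bins at 104, 86 and 80 kb changed by 1.125, 1.081 and 1.056, and the call at 104 kb held in 2 of the 9 fits that left out 1 library.

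The window on IgG3, a constant gene between IgG1 and the mu gene, held 5.72% to 6.85% of the ends in the controls and 5.65% to 6.40% in the depleted libraries, and the groups overlapped. Its log2 difference was -0.02 ± 0.08 (limma, adjusted p = 0.938). Contacts with both ends in it made up 5.05% ± 0.336 (SD, n = 4) and 4.67% ± 0.509 (SD, n = 5), and did not pass the test (log2 -0.11 ± 0.11, limma, adjusted p = 0.536). Between 150 and 210 kb the summed share of ends was 22.2% ± 0.704 (SD, n = 4) in the controls and 22.6% ± 1.25 (SD, n = 5) after depletion. The share within 10 kb of the viewpoint was likewise close, at 26.8% ± 1.46 and 26.7% ± 0.704 (SD, n = 4 and n = 5), with an exact two-sided permutation p of 0.883.

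At hs4, which belongs to the enhancer cluster downstream of the constant genes, the clones went apart. The clone 1 controls had 6.67% and 5.76% of their ends in the hs4 window, and the clone 1 depleted libraries had 6.07% and 6.12%. The clone 2 controls had 6.11% and 5.48%, and the clone 2 depleted libraries had 4.32%, 3.66% and 3.70%. Over both clones the log2 difference was -0.32 ± 0.10 (SE; limma, adjusted p = 0.0253). It was -0.02 in clone 1 alone (adjusted p = 0.959, limma) and -0.58 in clone 2 alone (adjusted p = 1.30e-08, limma). As at Emu, these p-values draw largely on the spread pooled over the other pairs and windows. The difference between clones was -0.55 ± 0.15 for the window (limma, adjusted p = 0.0555). For contacts with both ends in the hs4 window it was -0.88 ± 0.20 (limma, adjusted p = 0.0309). Of the 180 block pairs, 1 differed between clones (0.556%) and 37 had an unadjusted p under 0.05 (20.6%). The call for the window was lost in 14 of 27 alternatives, with adjusted p up to 0.959 (limma). Just beyond hs4, the block at 10-20 kb fell in both clones, from 1.17% ± 0.111 (SD, n = 4) to 0.759% ± 0.086 (SD, n = 5), and its groups did not overlap (log2 -0.63 ± 0.11, limma, adjusted p = 0.000808). The block at 20-30 kb, which shares bins with the hs4 window, changed by -0.67 ± 0.17 (limma, adjusted p = 0.00487), -0.22 in clone 1 alone and -1.04 in clone 2 alone.

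Tri-C also shows which second place joined a contact. In 8 of the 9 libraries most contacts that touched Emu had their other end in the same window: 74.1% and 70.9% in the clone 1 controls, 76.9% and 89.0% in the clone 2 controls, 72.2% and 67.4% in the clone 1 depleted libraries, and 65.2%, 48.0% and 52.7% in the clone 2 depleted libraries. The share of all contacts with both ends at Emu was 4.30% to 8.16% in the controls and 1.36% to 2.99% in the depleted libraries, which did not overlap. The log2 difference was -1.54 ± 0.18 (SE; limma, adjusted p = 9.77e-08), and it was called in all 27 alternatives, between -1.93 and -1.08. Of 358 pairs of 1 kb bins, 8 fell (2.23%) and none rose, and all 8 lay between 217 and 230 kb. No pair of 1 kb bins rose at an adjusted p under 0.05, while 78 of the 358 (21.8%) had an unadjusted p under 0.05 in either direction (limma).

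The 3-way contact of IgG1 with hs4 and Emu together was rare, at 218 recovered contacts in the 4 controls and 353 in the 5 depleted libraries. By the weighted values it made up 0.434% and 0.157% in the clone 1 controls and 0.137% and 0.025% in the clone 2 controls. In the depleted libraries it made up 0.104% and 0.175% in clone 1 and 0.151%, 0.193% and 0.133% in clone 2. The groups overlapped in both clones. The mean was 0.188% in the controls and 0.151% after depletion, while the fitted log2 difference had the opposite sign, at 0.21 ± 0.45 (SE; limma, adjusted p = 0.787), so no direction is given. It was -0.88 in clone 1 alone and 1.12 in clone 2 alone. The contacts that touched Emu had their other end at hs4 in 3.94% and 2.60% of cases in the clone 1 controls and in 2.51% and 4.52% after depletion. In clone 2 these shares were 1.74% and 0.309% in the controls and 3.99%, 5.96% and 5.14% after depletion. The pairs of IgG3 with Emu (0.101% ± 0.069 and 0.036% ± 0.010, SD, n = 4 and n = 5), IgG2a with IgG3, hs4 with IgG2a and hs4 with IgG3 did not pass the test, at adjusted p of 0.448, 0.270, 0.219 and 0.769 (limma). IgG2a with Emu, at 9 recovered contacts in the controls and 54 in the depleted libraries, was below the filter on low values and was not tested.

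**Figure D3:**
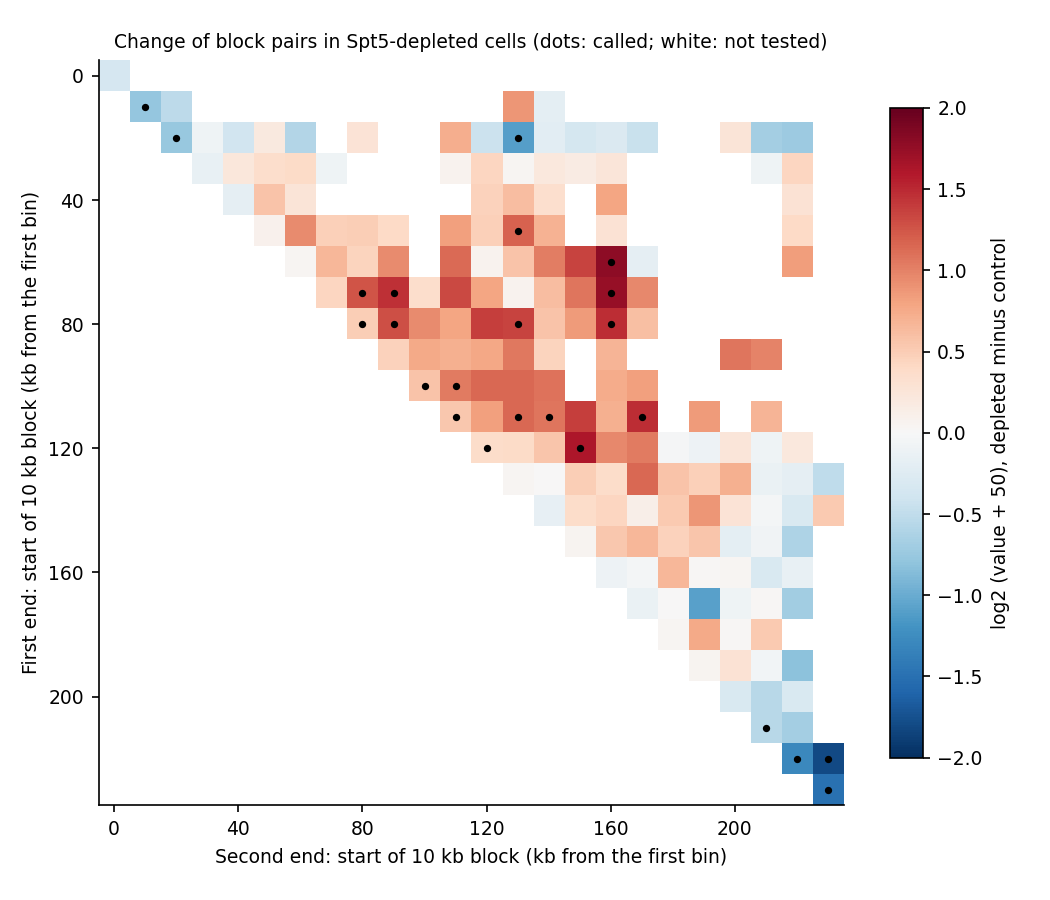
Log2 difference, depleted minus control, for each pair of 10 kb blocks (axes: start of the block of each end, kb from the first bin; log2 of value plus 50). Dots mark the 24 called pairs and white cells were not tested; the 17 called rises all have an end between 50 and 130 kb, and 4 of the 7 called falls have an end from 210 kb on.

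Over pairs of 10 kb blocks, 17 of 180 rose (9.44%) and 7 fell (3.89%), and 129 of the 180 had a difference above 0, with a median of 0.39 on the log2 scale. With the median ratio scaling the split was 3 up and 10 down of 172. All 17 that rose had an end between 50 and 130 kb, 8 had both ends between 60 and 130 kb, and 4 joined a block with itself. A further 5 crossed the viewpoint to land between 150 and 180 kb. The pair of 60-70 kb with 160-170 kb, the latter holding part of the IgG3 window, went from 0.042%, 0.016%, 0.011% and 0% in the controls to 0.087%, 0.089%, 0.111%, 0.080% and 0.064%, in the order in which the groups are listed above (log2 1.78 ± 0.49, limma, adjusted p = 0.0172). Its groups did not overlap. The pairs of 70-80 kb and 80-90 kb with 160-170 kb changed by 1.74 ± 0.53 and 1.48 ± 0.48 (limma, adjusted p = 0.0253 and 0.0344). In clone 1 alone these 3 pairs gave 1.24, 0.69 and 1.00 with no call, against 2.23, 2.61 and 1.88 in clone 2 alone. Their calls held in 6, 4 and 2 of the 9 fits that left out 1 library. The other pairs among the 5 largest rises were 120-130 kb with 150-160 kb (log2 1.62 ± 0.45, limma, adjusted p = 0.0204) and 110-120 kb with 170-180 kb (log2 1.47 ± 0.50, limma, adjusted p = 0.0453), which held in 5 and 2 of the 9. Of the 7 pairs that fell, 5 joined a block with itself, and the largest fall was between 220-230 kb and the last block (log2 -1.81 ± 0.33, limma, adjusted p = 0.000223). It held in 9 of the 9 fits that left out 1 library, and in each clone alone. The last block with itself changed by -1.49 and 220-230 kb with itself by -1.29, and both also held in 9 of 9. The pair of 20-30 kb with 130-140 kb changed by -1.11 and 10-20 kb with itself by -0.77, and these held in 4 and 5 of 9.

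The number of called block pairs rested on single libraries and on the clone. It was 3 in clone 1 alone and 76 in clone 2 alone, and leaving out 1 library gave 5 (without the depleted library of clone 2, replicate 2) to 50 (without the depleted library of clone 1, replicate 3). The other libraries whose loss moved it by over 1.5 times were replicate 1 of the clone 1 controls (12 calls), replicates 1 and 2 of the clone 2 controls (8 and 6 calls) and replicates 1 and 3 of the depleted clone 2 libraries (11 and 9 calls). Without contacts that had both ends in 1 bin there were 5 calls. In simulated block pairs with known changes, scaled to 1 sum as the deposited matrices are, 15.9% of the calls were false, against 4.82% when the shift of that sum was taken out, so the 24 calls may hold more false ones than the threshold of 0.05 names.

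Pairs were also set against what their single blocks predict. Relative to that product, 16 of 180 block pairs were called (8.89%), 8 fitted up (4.44%) and 8 fitted down (4.44%), and 11 of the 16 joined a block with itself. For 2 of those fitted down, 10-20 kb and the last block with themselves, the ratio of means rose, so no direction is given for them and 6 falls are left. The product holds the square of a window's share of ends, so where most contacts stay within a window this ratio moves against that share, and the values for single windows are no measurement apart from the changes in ends given above. Contacts within the Emu window were 8.88 to 16.0 times the product in the controls and 23.5 to 34.9 times after depletion, and the log2 difference of this ratio was 0.89 ± 0.13 (limma, adjusted p = 0.000235). Contacts within the IgG2a window went from 29.3 to 40.2 times in the controls to 19.1 to 20.8 times (log2 -0.59 ± 0.09, limma, adjusted p = 0.000240). The hs4 and Emu pair had ratios of 0.34 and 0.26 against 0.24 and 0.44 in clone 1, and of 0.16 and 0.03 against 0.56, 1.10 and 0.91 in clone 2. Its log2 difference was 1.81 ± 0.55 (limma, adjusted p = 0.0441), 0.16 in clone 1 alone and 3.17 in clone 2 alone, and 13 of 22 alternatives lost the call.

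The share of contacts that crossed the viewpoint, with 1 end on the hs4 side and 1 on the Emu side, was 7.68% and 7.81% in the clone 1 controls and 6.13% and 8.50% after depletion. In clone 2 it was 5.86% and 4.19% in the controls and 10.96%, 10.89% and 10.75% after depletion. The clones went in opposite directions, by -0.43 and 5.84 percentage points. Averaged over clones the difference was 2.71 points, with an exact two-sided permutation p of 0.0667 within clones (adjusted p = 0.167 over 5 measures), where 60 arrangements allow no p under 0.0167. The share of contacts with both ends in 1 bin moved the opposite way in each clone: 52.1% and 51.9% against 55.3% and 52.8% in clone 1, and 55.4% and 57.4% against 47.7%, 48.3% and 48.3% in clone 2. Without such contacts the mean crossing share was 13.8% in the controls and 18.9% after depletion (exact two-sided permutation p = 0.0667). The part of contacts in 1 bin in the difference between clones was not tested.

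**Figure D4:**
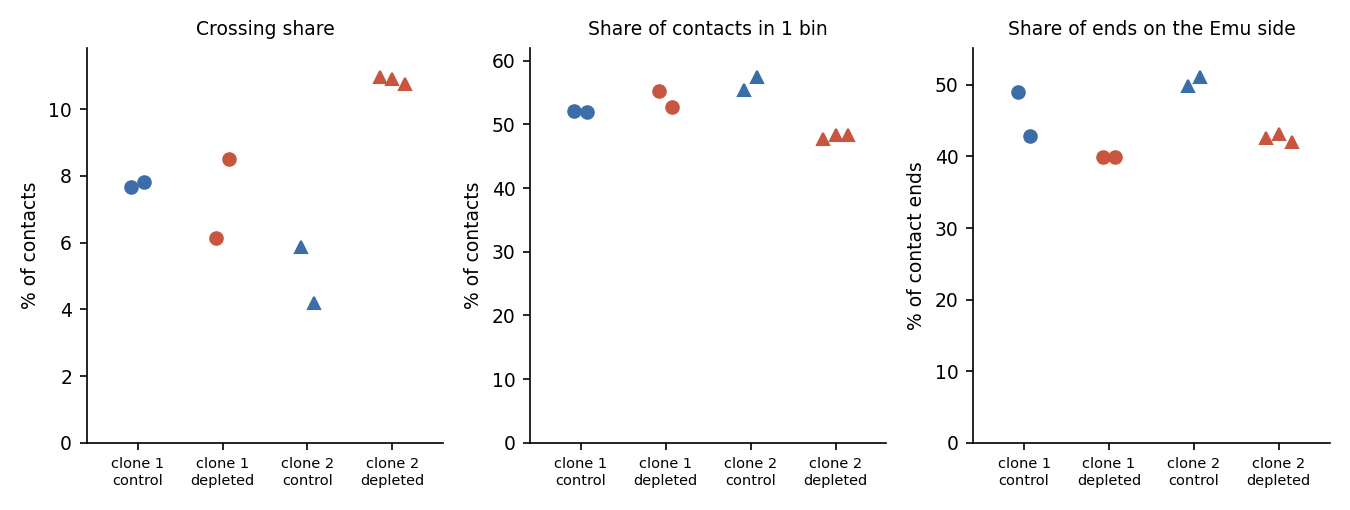
Crossing share, share of contacts in 1 bin and share of ends on the Emu side (vertical axes, percent) by clone and condition, 1 point per library. In clone 2 the depleted libraries have a higher crossing share (10.75% to 10.96%) and a lower share in 1 bin (47.7% to 48.3%) than the controls; in clone 1 both overlap or nearly meet.

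The share of ends on the Emu side of the viewpoint was lower after depletion in both clones. It was 49.0% and 42.9% against 39.97% and 39.91% in clone 1, and 49.8% and 51.1% against 42.6%, 43.2% and 42.1% in clone 2. In each clone every depleted library lay below every control. The mean difference over clones was -6.94 percentage points, with an exact two-sided permutation p of 0.0167, the smallest that the arrangements allow (adjusted p = 0.0833 over 5 measures).

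Libraries with the same capture probe label were made at 0, 48 and 72 h of activation, from cells whose titles read B18AIDKO, a name the Spt5 titles do not carry. They give levels to set beside these with no test, and cell source, library set and condition cannot be told apart. At Emu the activation series had a mean of 2.31% of ends at 0 h (1.91% to 2.58%, n = 4), 9.83% at 48 h (6.81% to 13.1%, n = 6) and 11.01% at 72 h (9.68% to 12.8%, n = 6). Of the 4 Spt5 controls, 3 lay within this 48 h range of both clones and 1, at 5.18%, below it. Within clone 1 the 48 h range was 6.81% to 9.57%, and the controls, at 5.18% and 9.58%, lay on either side. Within clone 2 it was 10.2% to 13.1%, and the controls, at 6.95% and 7.65%, lay below it. The depleted libraries, at 1.98% to 3.57%, overlapped the 0 h range of both clones. In clone 1 they (3.24% and 3.57%) lay above the 0 h libraries (2.48% and 2.58%), and in clone 2 the ranges overlapped. At IgG2a the means were 4.51% at 0 h, 2.28% at 48 h and 1.99% at 72 h, against 2.36% in the controls and 3.68% after depletion. From 60 to 130 kb they were 33.2%, 18.9% and 16.4%, against 20.3% and 28.5%. At hs4 the levels of both clones were 2.46% to 3.09% at 0 h and 4.53% to 6.74% at 48 h. In clone 2 they were 2.46% to 3.09% at 0 h and 6.18% to 6.74% at 48 h. The depleted libraries of clone 2 (3.66% to 4.32%) lay between those ranges. In clone 1 the levels were 4.53% to 4.98% at 48 h and 5.01% to 5.91% at 72 h. The depleted libraries of clone 1 (6.07% and 6.12%) lay above both ranges, and its controls were at 5.76% and 6.67%. The share of contacts in 1 bin was 29.2% to 45.5% in the activation series and 47.7% to 57.4% in the Spt5 series, so the sets of libraries differed in build too.

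**Figure D5:**
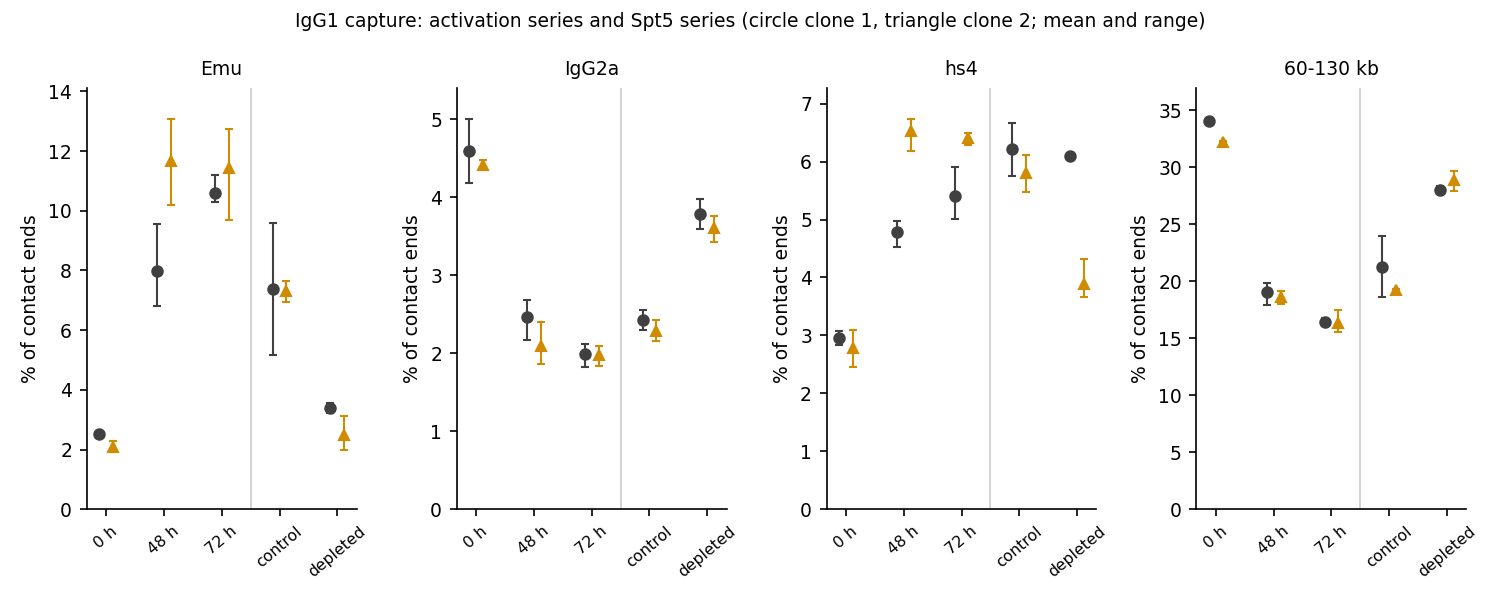
Percent of contact ends (vertical axes) at Emu, IgG2a, hs4 and from 60 to 130 kb in the IgG1 capture of the activation series (0, 48 and 72 h) and of the Spt5 series, by clone; points are means and bars the range over libraries. At Emu the depleted libraries (1.98% to 3.57%) lie near the 0 h libraries (1.91% to 2.58%), and at IgG2a they lie between the 0 h and the 48 h libraries.

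Spt5 depletion was also viewed from IgG2a, in 2 control and 3 depleted libraries. Their clone field reads clone 1, as it does for every library whose title names no clone. From there no block of the 24 was called (0%), and 3 (12.5%) had an unadjusted p under 0.05 (limma). Of 159 block pairs 1 was called (0.629%), a fall in contacts with both ends at 80-90 kb, the block that holds the IgG2a viewpoint itself: 21.97% and 25.36% of contacts in the controls against 17.87%, 17.22% and 17.40% (log2 -0.43 ± 0.08, limma, adjusted p = 0.0101). Leaving out 1 library gave 0 to 17 calls: 17 and 9 without control replicate 1 or 2, and 0 without any 1 of the depleted libraries. The IgG1 window held 1.69% and 2.21% of the ends in the controls and 2.52%, 3.01% and 2.34% after depletion. These groups did not overlap, and the difference did not pass the test (log2 0.43 ± 0.19, limma, adjusted p = 0.173). Emu held 1.48% and 1.33% against 1.00%, 1.26% and 0.872% (log2 -0.44 ± 0.26, limma, adjusted p = 0.314).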

How the data were processed

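Per the labels' protocols, formaldehyde-fixed nuclei were digested with NlaIII, religated and sonicated, and the libraries were hybridised to capture probes. Bowtie2 and mm9 are named in the submitters' processing notes. The deposited signal matrices hold contact values that the authors scaled to a sum of 300000. Off the diagonal, values under 20 contacts came out as whole contacts (tolerance 0.04) once a whole-number divisor per bin was found, which gave the depth (30578 to 89862 contacts). Intervals over contacts would cover counting error only. Values were summed over 10 kb blocks, windows and 1 kb bins, and limma 3.58.1 (R 4.3.3) was fitted to log2(value + 50) with clone as a term, where the mean value reached 100, with Benjamini-Hochberg adjustment at 0.05. Single shares were tested by exact permutation within clones. All 4 probe windows and their 10 pairs are named, and among blocks, block pairs and bins the 5 largest called changes each way that had 1 direction in both clones. The windows, blocks and lists were chosen with earlier results of these data known. On simulated block pairs scaled to 1 sum, 93% of 3-fold and 63% of 2-fold changes were found and 15.9% of calls were false. This was 4.82% with the known shift of the sum taken out, a second simulation made after the first result was seen. Both simulations used an assumed spread, changed only pairs with more recovered contacts and gave both clones the same change. Their rates may therefore not hold for sparse pairs or where the clones differ. Replicate numbers were not shown to pair the libraries.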

Additional observations from a re-analysis of the deposited data

Results flagged for a closer look

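In the block at 70-80 kb, replicate 3 of the clone 1 controls stood apart from the other controls, at 2.41% of the contact ends against 1.63% to 1.66%. It was 1 of 56 groups of values looked at in this way, and chance sets apart about 1 in 20. The depleted and control libraries still did not overlap in either clone taken alone. The same control also lay nearest the depleted libraries from 70 to 130 kb as a whole, at 20.2% against 15.4% to 16.1% in the other controls. In the Emu window it did so too, at 5.18% against 6.95% to 9.58%. At hs4 it lay among the other controls, at 5.76% against 5.48% to 6.67%.

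The effect of depletion differed between the clones, by a test of the difference, for contacts with both ends at 20-30 kb and for contacts with both ends in the hs4 window. The window runs from 26 to 37 kb and so shares bins with that block. The log2 difference of clone 2 minus that of clone 1 was -1.24 ± 0.25 at 20-30 kb (limma, adjusted p = 0.0143) and -0.88 ± 0.20 at hs4 (limma, adjusted p = 0.0309). At 20-30 kb the change was -0.09 in clone 1 alone and -1.32 in clone 2 alone. Of the 180 block pairs this was 1 call (0.556%), and 37 (20.6%) had an unadjusted p under 0.05. The share of contacts in 1 bin was lower after depletion in clone 2 (47.7% to 48.3% against 55.4% and 57.4%) and not in clone 1, and its part was not tested.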

How the results depend on the processing

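The fall at Emu, as ends in the window and as contacts with both ends in it, was called in all 27 alternatives. The count of called blocks stayed within 1.5 times of 11 except with the median ratio scaling (5, all down), in clone 1 alone (0) and with blocks of 5 kb (23 of 47). Leaving out 1 library gave 11 to 13.

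Called block pairs, 24 in the report, numbered 13 with no filter on low values, 13 with the median ratio scaling, 5 without contacts in 1 bin, 3 in clone 1 alone, 76 in clone 2 alone, 10 with block borders moved by 5 kb and 6 with a prior without a trend. Leaving out 1 library gave 5 to 50. Called windows and pairs of windows, 6 in the report, numbered 2 with the median ratio scaling, 3 without contacts in 1 bin, 3 in clone 1 alone, 3 with windows of 7 kb and 2 with a prior without a trend, and 3 to 6 with 1 library left out. Called 1 kb bins, 50 in the report, numbered 27 with the median ratio scaling (1 up, 26 down), 32 when thinned to the shallowest library, 0 in clone 1 alone and 30 when summed by replicate number, and 16 to 61 with 1 library left out.

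Pairs called against their single blocks, 16 in the report, numbered 8 with a pseudocount of 10, 10 with no filter, 8 with the median ratio scaling, 8 without contacts near the viewpoint, 8 when thinned, 5 without contacts in 1 bin, 0 in clone 1 alone and 38 in clone 2 alone, and 4 to 27 with 1 library left out. Block pairs that differed between clones, 1 in the report, numbered 2 with a pseudocount of 200, 2 with no filter, 13 with the median ratio scaling, 4 when thinned, 4 by voom on recovered contacts and 4 without contacts in 1 bin, and 0 to 24 with 1 library left out. Blocks that differed, 0 in the report, numbered 20 with the median ratio scaling, 1 by voom and 2 without contacts in 1 bin, and 0 to 3 with 1 library left out. From IgG2a, 0 blocks were called with any 1 library left out, and block pairs, 1 in the report, numbered 0 to 17. The cause was not tested for any of these.

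With a replicate block, beside clone or within it, 2 block pairs were called by either fit, 3 windows or pairs of windows by either, 6 and 4 bins, and 8 and 4 pairs against their single blocks. Same-numbered libraries of 1 clone correlated in their deviations from group means at -0.08, 0.01 and -0.06. With 2 controls in each clone, the deviations of 1 control mirror those of the other. Each of these values is thus matched by its negative in a differently numbered pair. The check can say little on pairing, and the numbers are not shown to pair the libraries. With 3 pairs that share clone and number, the crossing share differed by 3.37 percentage points under the replicate block (exact two-sided permutation p = 0.5). Its 8 arrangements come in mirror pairs of equal size, so this test could not reach a p under 0.05.

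The difference in crossing share, 2.71 points in the report, was -0.43 in clone 1 alone and 3.68 when summed by replicate number. The sum gave an exact permutation p of 0.0286, the smallest that its 35 arrangements allow. It mixes the clones unevenly between the conditions, so that p is no test within clones. With 1 library left out the difference was 2.11 to 3.30. The exact permutation p ran from 0.0333 (the smallest possible there), without the depleted library of clone 1, replicate 3, to 0.222. Windows that were not called changed sign as follows, on the log2 scale. IgG3 was at 0.041 without contacts in 1 bin, 0.084 in clone 2 alone, 0.049 with either replicate block and 0.012 with windows of 7 kb, and at -0.046 to 0.035 with 1 library left out. IgG3 with hs4 was at 0.16 by voom, 0.63 in clone 2 alone and 0.048 with either replicate block, and at -0.51 to 0.032 with 1 library left out. Emu with hs4 was at -0.10 with the median ratio scaling, -0.023 when thinned, -0.88 in clone 1 alone and -0.21 with windows of 21 kb, and at -0.43 to 0.65 with 1 library left out. IgG3 with Emu was at 0.056 in clone 2 alone. Of called results, hs4 with itself was at 0.059 in clone 1 alone, and the last block with itself, against its single blocks, at 0.054 with a pseudocount of 10. The alternatives without contacts in 1 bin, with 1 set of bin divisors, and those for the clone difference, for the IgG2a capture and for pairs against single blocks were chosen after seeing the data. The pairs of distant windows rest on few recovered contacts, such as 218 and 353 for hs4 with Emu.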
